A study of Mus musculus with 4 samples.

Results

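The report covers 8 genes of the sodium, calcium and pacemaker channels of the mouse heart: Scn4b, Cacna1c, Cacnb2, Cacna2d1, Cacna1g, Cacna1h, Hcn2 and Hcn4. Members were all probe sets whose platform annotation names exactly 1 symbol, that symbol being one of these genes. The rule found 14 probe sets for 7 genes, out of 45037 probe sets and 18193 genes in all. Hcn4, the main pacemaker channel of the sinus node, had no probe set under this rule and was not analysed here. Scn4b, Cacna1g and Hcn2 had 1 probe set each, Cacna1c, Cacnb2 and Cacna1h had 2 each, and Cacna2d1 had 5.

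The study compared hearts of transgenic mice, labelled Tg-Sirt1, with hearts of wild type mice, labelled NTg, and had 2 mice of each kind, 1 array per mouse. Sirt1 is an NAD-dependent protein deacetylase. Total RNA came from snap-frozen hearts of mice killed with pentobarbital. The sources used here do not give age, sex, strain, the transgene's promoter and line, or the part of the heart taken.

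Sodium channels carry the fast upstroke of the cardiac action potential, L-type calcium channels carry the plateau current that triggers contraction, and T-type calcium channels and the hyperpolarization-activated channels serve pacemaking. A pore-forming alpha subunit sets the kind of current, while beta and alpha2-delta subunits govern how many channels reach the membrane and how they gate. In the heart, T-type and pacemaker channels are known as genes of the sinus node and the conduction tissue, and of the fetal ventricle.

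Array NTg 1 and the array labelled Tg-Sirt1 1 held nearly the same values, which bears on every comparison of the labels. Over all probe sets, the SD of their differences was 0.0759 log2 units and none differed by 0.5 or more (0%), and among the 14 channel probe sets the largest difference between them was 0.13. The other 5 pairs of arrays had SDs of 0.342 to 0.405. Sirt1 itself read 7.30 and 7.17 on NTg arrays 1 and 2, and 7.16 and 7.93 on Tg-Sirt1-labelled arrays 1 and 2, so that 1 of the 2 arrays with the transgenic label was above the wild type arrays. Throughout, array names are therefore labels only, and values in the same order follow NTg 1, NTg 2, Tg-Sirt1 1, Tg-Sirt1 2. The cardiomyocyte markers were bright on all arrays, with a mean over 10 genes of 13.57 and 13.48 on NTg arrays 1 and 2, and 13.57 and 13.41 on Tg-Sirt1-labelled arrays 1 and 2.

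No channel probe set passed the test between the labels. In limma, 0 of the 14 had an adjusted p under 0.05 or an unadjusted p under 0.05, beside 0% and 0.0622% (28) of all 45037 probe sets. In none of the 14 did both Tg-Sirt1 arrays lie above both NTg arrays, or both below them, beside 9.59% and 11.4% of all probe sets. The Tg-Sirt1 mean was higher at 8 of the 14, lower at 5 and equal at 1, and it was higher at 45.6% of all probe sets. The median difference was 0.03 log2 units, beside -0.015 over all probe sets. The confidence intervals given with each gene treat the arrays as separate measurements with correct labels. Because of the near-identical pair, they do not bound the difference between the kinds of mice. A test of 2 against 2 arrays by exact two-sided permutation cannot give a p below 0.333. The study's design names separate mice. With 2 of the arrays near-identical, the p-values and intervals measure only the spread between these arrays.

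What varied was the level on single arrays. The sodium channel gene Scn4b and the L-type beta subunit gene Cacnb2 were more than 2-fold lower on NTg 2 than on NTg 1, whereas the pore gene Cacna1c and the main probe set of Cacna2d1 were not. The pair NTg 1 and Tg-Sirt1 1 counts in effect as 1 measurement, so each of these statements compares 3 distinct profiles, without a test.

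**Figure D1:**
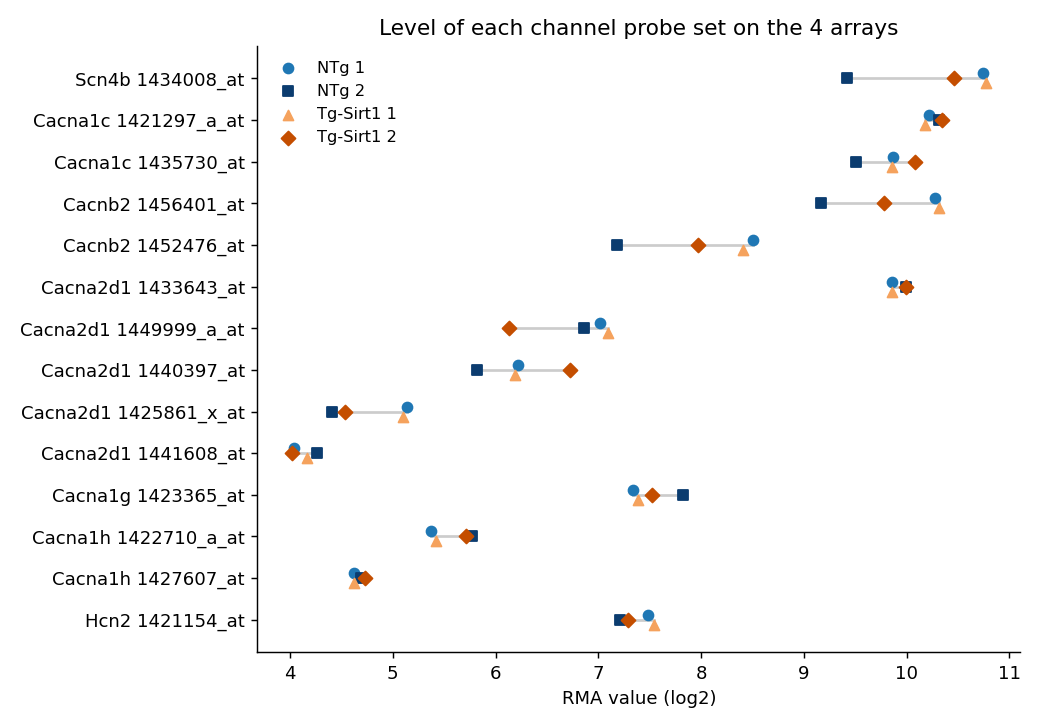
RMA values on the log2 scale (horizontal axis) of each of the 14 channel probe sets (vertical axis, gene and probe set) on the 4 arrays, with a grey line from the lowest to the highest array. Circles and triangles, NTg 1 and Tg-Sirt1 1, nearly coincide in every row, and the widest spreads are those of Scn4b (9.42 to 10.77) and Cacnb2 1452476_at (7.18 to 8.50), with NTg 2 lowest. Levels of different probe sets cannot be compared.

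Scn4b and Cacnb2 were the members with the widest range over the arrays, so the sequences before their annotated transcription starts are shown. They are from RefSeq on GRCm38.p6, plus strand, 250 bases up to the base before the start. The arrays do not tell which of the 2 Cacnb2 starts in the table was used. Capitals mark matches, on either strand, to a CCAAT box (CCAAT), a GC box (GGGCGG) or an E-box (CANNTG).
Scn4b, chr9:45138374-45138623: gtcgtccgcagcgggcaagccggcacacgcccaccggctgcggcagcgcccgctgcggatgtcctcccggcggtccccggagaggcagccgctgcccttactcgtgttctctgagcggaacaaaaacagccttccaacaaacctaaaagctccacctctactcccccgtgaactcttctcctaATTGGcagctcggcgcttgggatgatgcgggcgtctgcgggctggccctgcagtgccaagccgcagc
Cacnb2, first start, chr2:14604056-14604305: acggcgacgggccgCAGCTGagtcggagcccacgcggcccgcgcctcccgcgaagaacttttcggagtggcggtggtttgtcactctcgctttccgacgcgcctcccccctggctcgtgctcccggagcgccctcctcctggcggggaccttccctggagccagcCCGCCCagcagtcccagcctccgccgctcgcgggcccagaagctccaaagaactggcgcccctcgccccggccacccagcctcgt
Cacnb2, second start, chr2:14823842-14824091: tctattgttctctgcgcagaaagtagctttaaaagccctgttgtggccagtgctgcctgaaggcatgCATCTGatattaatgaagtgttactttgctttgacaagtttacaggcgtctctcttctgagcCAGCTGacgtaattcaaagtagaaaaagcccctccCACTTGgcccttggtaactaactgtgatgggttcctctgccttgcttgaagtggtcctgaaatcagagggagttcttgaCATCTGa

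The Scn4b window and that of the first Cacnb2 start were rich in G and C (66% and 73.2%), with 23 and 30 CG dinucleotides, while that of the second Cacnb2 start had 46% and 3; the median over 32817 such windows was 52.4%. The Scn4b window held 1 CCAAT box, 67 bases before the start, a motif present in 33.8% of all windows. The first Cacnb2 window held 1 GC box at 85 bases before the start (32.7% of all windows) and 1 E-box. The second held 4 E-boxes, at 183, 121, 86 and 7 bases before the start, and 66.2% of all windows hold at least 1. A TATA box (TATAAA, 12.4% of windows) and a FoxO core (GTAAACA, 3.16%), searched because FoxO factors are substrates of Sirt1, had no match in the 3 windows. No motif of the 5 was found in all 3 windows.

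Scn4b encodes a beta subunit of the voltage-gated sodium channels, a small membrane protein that alters the gating of the pore and takes part in cell adhesion. Its probe set read 10.74 and 9.42 on NTg arrays 1 and 2, and 10.77 and 10.46 on Tg-Sirt1-labelled arrays 1 and 2. NTg 2 was the only low array, 1.04 log2 units below the next lowest, and 2.50-fold lower than NTg 1, and NTg 1 lay within the range of the Tg-Sirt1-labelled arrays. The mean was 10.08 ± 0.93 (SD, n = 2) in NTg and 10.62 ± 0.22 (SD, n = 2) in Tg-Sirt1. The difference of 0.535 (SE 0.44, 95% confidence interval -0.60 to 1.67) had an unadjusted p of 0.28 and an adjusted p of 0.996 in limma. Without NTg 2 it was -0.125, and without NTg 1 it was 1.195. Averaging the near-identical arrays into a single NTg array gave 0.37, with Tg-Sirt1 2 alone on the other side, and into a single Tg-Sirt1 array gave 1.19, with NTg 2 alone on the other side.

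Cacnb2 encodes the main cardiac beta subunit of the L-type channel, an intracellular protein that carries the pore to the membrane and raises its opening. On both of its probe sets NTg 2 was lowest and Tg-Sirt1 2 second lowest. The brighter, 1456401_at, read 10.28 and 9.17 on NTg arrays 1 and 2, and 10.31 and 9.78 on Tg-Sirt1-labelled arrays 1 and 2. The other, 1452476_at, read 8.50, 7.18, 8.41 and 7.97 on the arrays in the same order. NTg 2 was thus 2.16-fold and 2.50-fold lower than NTg 1, and Tg-Sirt1 2 was 1.41-fold and 1.44-fold lower than NTg 1. The NTg means were 9.73 ± 0.78 and 7.84 ± 0.93, and the Tg-Sirt1 means 10.05 ± 0.37 and 8.19 ± 0.31 (SD, n = 2 each). The differences between the labels were 0.32 (95% confidence interval -0.72 to 1.36) and 0.35 (-0.81 to 1.51), both with an adjusted limma p of 0.996. Both turned negative without NTg 2, at -0.235 and -0.31, and were 0.875 and 1.01 without NTg 1. With the near-identical pair counted once they were 0.05 and 0.15 as NTg, and 0.87 and 1.03 as Tg-Sirt1, where again 1 label has a single array.

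The drop of Scn4b and Cacnb2 on NTg 2 was larger than the median shift of bright probe sets there. These genes were singled out by their range, which that drop sets, so the comparison is a description and not a test. Of the 9995 probe sets with a mean of at least 8, the median difference of NTg 2 from NTg 1 was -0.22, and 19.3% were lower on NTg 2 by 0.5 or more and 2.29% by 1 or more. Of the 6 channel probe sets this bright, 3 were lower by 1 or more, namely that of Scn4b and both of Cacnb2. Over all brightness levels, 4 of the 14 were lower on NTg 2 by at least 0.5 and 0 were higher by that much, beside 8.23% and 4.17% of all probe sets. After a second quantile normalization, which brought the bright median to -0.01, the difference from NTg 1 was -1.08 for Scn4b and -0.875 and -1.23 for Cacnb2.

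The gap between 3' and 5' control probe sets, a sign of RNA quality, was larger on NTg 2 than on the near-identical pair. For Gapdh it was 0.69 log2 units on NTg 2, 0.18 and 0.19 on the pair and 1.34 on Tg-Sirt1 2, and for Actb 1.44, 1.22 and 1.25, and 1.92. Its part in the Scn4b and Cacnb2 values was not tested.

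Markers of cardiac fibroblasts were low on NTg 2 as well: 6 of 6 were lowest there. Beside this, 41.3% of all probe sets with a mean of at least 6 were lowest on NTg 2. The mean over the list was 11.05 and 10.09 on NTg arrays 1 and 2, and 11.05 and 10.72 on Tg-Sirt1-labelled arrays 1 and 2. The median difference of NTg 2 from NTg 1 was -1.02 for the fibroblast list, -0.48 for endothelial markers, -0.11 for smooth muscle and pericyte markers and -0.07 for cardiomyocyte markers. It was -0.22 over all probe sets with a mean of at least 8. The part of these cell types in the channel values was not tested. In whole-tissue RNA, fewer cells of a type and less RNA per cell cannot be told apart.

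**Figure D2:**
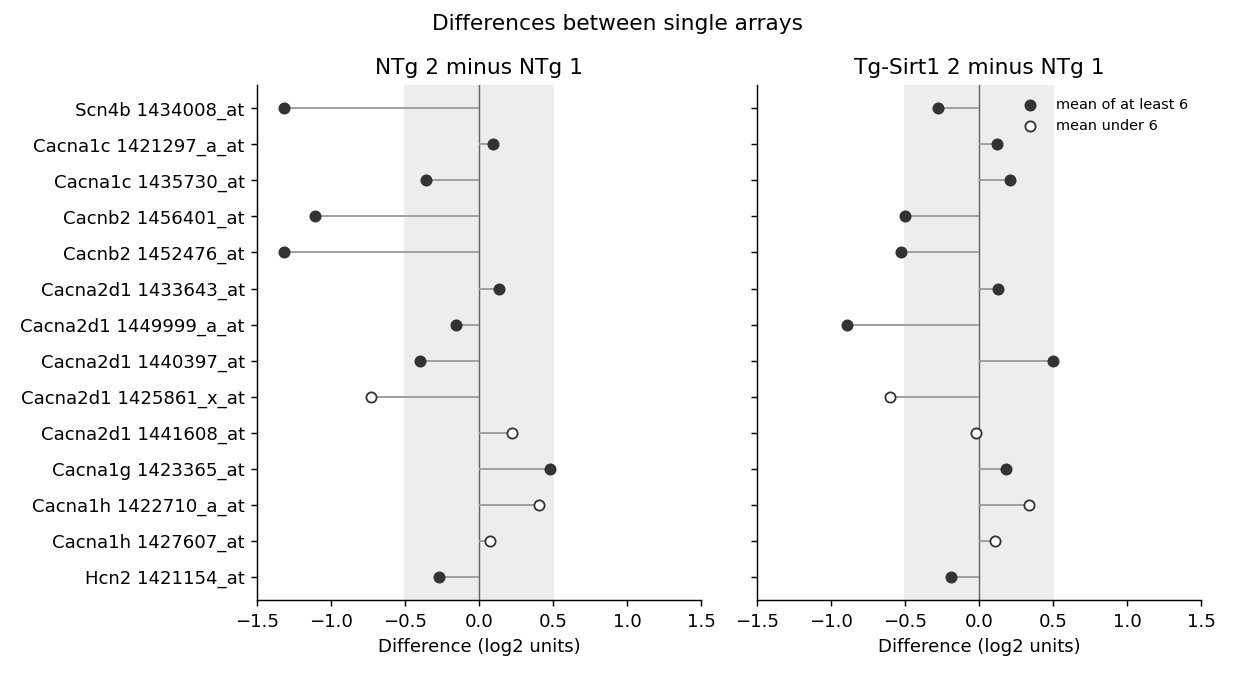
Difference of NTg 2 (left) and of Tg-Sirt1 2 (right) from NTg 1, in log2 units, for each of the 14 channel probe sets, with the range of -0.5 to 0.5 shaded and open circles for probe sets with a mean under 6. On the left, Scn4b and both Cacnb2 probe sets lie below -1, and on the right Cacna2d1 1449999_a_at is lowest at -0.89. Both panels share NTg 1, and no test was made.

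Cacna1c encodes the pore-forming subunit of the cardiac L-type calcium channel, the partner of Cacnb2 in the membrane. Its brighter probe set, 1421297_a_at, read 10.22 and 10.31 on NTg arrays 1 and 2, and 10.18 and 10.34 on Tg-Sirt1-labelled arrays 1 and 2. These 4 values lay within 0.16 log2 units of each other. The difference between the labels was -0.005 with a 95% confidence interval from -0.36 to 0.35 (limma adjusted p = 0.996). The second probe set, 1435730_at, read 9.87, 9.51, 9.86 and 10.08 on the arrays in the same order, with NTg 2 lowest and Tg-Sirt1 2 highest. Its difference was 0.28 (-0.18 to 0.74, limma adjusted p = 0.996) and was positive with any array left out, from 0.10 without NTg 2 to 0.46 without NTg 1. The 2 probe sets of this gene thus ranked NTg 2 differently.

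Cacna2d1 encodes the alpha2-delta subunit, an extracellular protein that supports trafficking of L-type channels and is the target of gabapentin. Its 5 probe sets gave different patterns. The brightest, 1433643_at, read 9.86 on both NTg 1 and the array labelled Tg-Sirt1 1, and 9.99 on both NTg 2 and Tg-Sirt1 2, so that the labels had the same mean, 9.925 ± 0.09 (SD, n = 2 each), and a difference of 0 with an interval from -0.35 to 0.35. Like the brighter Cacna1c probe set, it varied little over the arrays in the deposited values. After a second quantile normalization, NTg 2 was above NTg 1 by 0.38 on this probe set and by 0.35 on Cacna1c 1421297_a_at.

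On Tg-Sirt1 2, a pair of other Cacna2d1 probe sets lay apart from the remaining arrays, in opposite directions. The probe set 1449999_a_at, whose suffix marks a match to several transcripts of the gene, read 7.02 and 6.86 on NTg arrays 1 and 2, and 7.09 and 6.13 on Tg-Sirt1-labelled arrays 1 and 2. The level on Tg-Sirt1 2 was 1.85-fold lower than on NTg 1. In contrast, 1440397_at read 6.22, 5.82, 6.19 and 6.72 in the same order, with Tg-Sirt1 2 highest. The differences between the labels were -0.33 (95% confidence interval -1.17 to 0.51) and 0.435 (-0.18 to 1.05), each with an adjusted limma p of 0.996. Without Tg-Sirt1 2 they were 0.15 and 0.17, and with the near-identical pair counted once as NTg they were -0.83 and 0.71, values that set Tg-Sirt1 2 alone against the NTg arrays. Array Tg-Sirt1 2 also had the largest gap between 3' and 5' control probe sets, 1.92 log2 units for Actb and 1.34 for Gapdh. Where the channel probe sets lie in the transcripts is not known here, and the part of this gap in their values was not tested.

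The other 2 Cacna2d1 probe sets were dim. The probe set 1425861_x_at, whose suffix marks probes shared with other sequences, read 5.14 and 4.41 on NTg arrays 1 and 2, and 5.10 and 4.54 on Tg-Sirt1-labelled arrays 1 and 2, lower on both arrays outside the near-identical pair. The probe set 1441608_at read between 4.02 and 4.26. Their differences between the labels were 0.045 and -0.055. A mean over the 5 probe sets gave 0.02 (SE 0.14, limma adjusted p = 0.998), a value that joins patterns with different signs.

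The T-type calcium channel genes were higher on NTg 2 and Tg-Sirt1 2 than on the near-identical pair. Of all 45037 probe sets, 24147 were above NTg 1 on NTg 2 and 23900 on Tg-Sirt1 2. Of the 24920 with a mean of at least 6, as Cacna1g had, 10099 and 12731 were. The number above NTg 1 on both arrays was not counted. Cacna1g, a pore subunit of the sinus node and conduction tissue, read 7.34 and 7.82 on NTg arrays 1 and 2, and 7.39 and 7.52 on Tg-Sirt1-labelled arrays 1 and 2. NTg 2 was highest by 0.30, and the labels overlapped. The difference of the labels was -0.125 (95% confidence interval -0.63 to 0.38, limma adjusted p = 0.996), and 0.115 without NTg 2. Cacna1h, the other T-type pore subunit of the heart, read 5.37, 5.77, 5.42 and 5.71 in the same order on 1422710_a_at. On 1427607_at it read 4.62, 4.69, 4.62 and 4.73, and after a second quantile normalization its difference of NTg 2 from NTg 1 was -0.04. Both probe sets of Cacna1h had means under 6, where detection is unknown without scanner files, and differences of -0.005 (-0.51 to 0.50) and 0.02 (-0.31 to 0.35).

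Of 7 atrial markers, 6 were above NTg 1 on NTg 2 and 5 on Tg-Sirt1 2, and none passed the test in limma (adjusted p under 0.05). Beside these counts, 24147 and 23900 of all 45037 probe sets were above NTg 1 on the same arrays. Of the 24920 with a mean of at least 6, as all atrial markers but Nr2f1 had, 10099 and 12731 were. Dkk3 was below NTg 1 on both arrays (-0.17 and -0.16) and Stard10 on Tg-Sirt1 2 (-0.33). Their mean over 7 genes was 9.53 and 9.76 on NTg arrays 1 and 2, and 9.55 and 9.90 on Tg-Sirt1-labelled arrays 1 and 2, and the median difference from NTg 1 was 0.24 on NTg 2 and 0.52 on Tg-Sirt1 2. The 9 measured markers of sinus node and conduction tissue had means of 6.85, 6.74, 6.88 and 7.00 in the same order. Of these 9, 5 were above and 4 below NTg 1 on NTg 2, and 4 were above and 4 below it on Tg-Sirt1 2, where the median difference was 0. The differences on Tg-Sirt1 2 ran from -0.35 for Smoc2 to 1.07 for Shox2, a transcription factor gene of the sinus node. The part of atrial and nodal tissue in the Cacna1g and Cacna1h values was not tested.

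Hcn2 encodes a hyperpolarization-activated cation channel that contributes to the pacemaker current and is found in working myocardium as well as the conduction system. Its probe set read 7.48 and 7.21 on NTg arrays 1 and 2, and 7.54 and 7.29 on Tg-Sirt1-labelled arrays 1 and 2. Both arrays outside the near-identical pair were lower, within a range of 0.33. The difference between the labels was 0.07 (95% confidence interval -0.36 to 0.50, limma adjusted p = 0.996), and it changed sign without NTg 2 (-0.065) and with the pair counted once as NTg (-0.07).

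**Figure D3:**
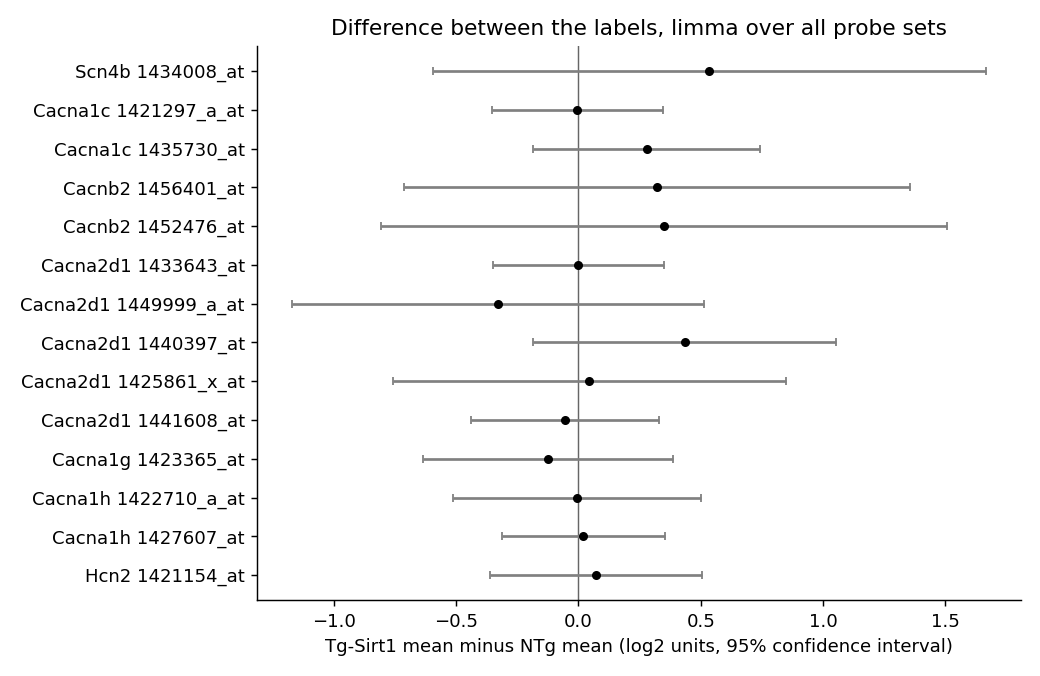
Difference in mean log2 value, Tg-Sirt1 minus NTg (horizontal axis), with 95% confidence intervals from limma, for each of the 14 channel probe sets. Every interval spans 0; it runs from -0.36 to 0.35 for Cacna1c 1421297_a_at and from -0.60 to 1.67 for Scn4b.

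Across the 14 probe sets, NTg 2 was the lowest array at 7 and the highest at 3, beside 29.6% and 38.5% of all probe sets. Tg-Sirt1 2 was the lowest at 2 and the highest at 4, beside 29.2% and 30.1%. It was lower than NTg 1 by at least 0.5 at 4 probe sets, which were both of Cacnb2 and 2 of Cacna2d1, and higher by that much at 1, a Cacna2d1 probe set, beside 6.67% and 3.33%. Of the 14, 10 had a mean of at least 6, and among these NTg 2 was lowest at 6, beside 41.3% of all probe sets this bright.

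The remaining channel genes did not share one direction. Over all probe sets, 45.6% had a higher Tg-Sirt1 mean. Of 29 probe sets for 10 other sodium channel subunit genes, 14 had a higher and 14 a lower Tg-Sirt1 mean (median 0). Of the 5 with a mean of at least 6, 5 were higher (median 0.17), beside 53.7% of all probe sets this bright. NTg 2 was the lowest array at 4 of these 5, beside 41.3%. Of 43 probe sets for 19 other calcium channel subunit genes, 13 were higher and 29 lower (median -0.075). NTg 2 was the highest array at 23 of the 43 (53.5%, beside 38.5% of all). Among the 18 of them with a mean of at least 6, 5 were higher and 13 lower. There NTg 2 was highest at 72.2%, beside 28.7% of all this bright. Markers of neurons and Schwann cells were highest on NTg 2 at 6 of 8 genes, with means of 6.82, 7.05, 6.85 and 6.82 on the arrays in order, and their part in the calcium channel values was not tested. Hcn3, the only other pacemaker channel gene with a probe set, read 6.64 and 7.08 on NTg arrays 1 and 2, and 6.66 and 6.68 on Tg-Sirt1-labelled arrays 1 and 2. Of 60 probe sets for 21 channel partner genes, 30 were higher and 29 lower (median 0.0025). With a mean of at least 6, 19 of 38 were higher and 18 lower. None of these passed the test.

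The highest differences among the other channel and partner genes were 0.545 for Scn10a, a sodium channel pore first known from sensory neurons, 0.435 for Gem, a small GTPase that binds calcium channel beta subunits, and 0.415 each for Ank2, an ankyrin that anchors channels, and Fgf13, an intracellular growth factor homologue that binds sodium channels. All 4 had NTg 2 as the lowest array. Brighter probe sets of Ank2 and Fgf13 had smaller differences, 0.185 and 0.24, and a dim Ank2 probe set had -0.275. Scn10a read 6.37 and 5.47 on NTg arrays 1 and 2, and 6.38 and 6.55 on Tg-Sirt1-labelled arrays 1 and 2, and the Tg-Sirt1 values lay above both NTg values by only 0.01. The lowest differences were -0.50 for a Camk2d probe set and -0.285 each for Cacna1e, an R-type pore subunit, and Cacng2, which is best known as an auxiliary subunit of AMPA receptors. Camk2d, a kinase that acts on L-type channels, had a brighter probe set that went the other way. It read 9.11 and 8.59 on NTg arrays 1 and 2, and 9.12 and 9.38 on Tg-Sirt1-labelled arrays 1 and 2. A further brighter Camk2d probe set, at 0.115, also went the other way, while another, at -0.275, did not. A dimmer Cacna1e probe set had a difference of 0.055. The adjusted limma p was 0.996 for each of the highest and lowest differences, 7 in all.

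Genes with profiles most like those of Scn4b and Cacnb2 were sought among probe sets with 1 symbol and a mean of at least 6, by Euclidean distance over the 4 arrays after centring each on its mean. The 3 nearest to Scn4b were Acta2, the smooth muscle actin gene (distance 0.04 log2 units), Crem (0.05), a cyclic AMP-responsive transcription factor gene, and Maged2 (0.06). Acta2 read 13.20 and 11.83 on NTg arrays 1 and 2, and 13.21 and 12.92 on Tg-Sirt1-labelled arrays 1 and 2. It stood apart from the other smooth muscle and pericyte markers. The difference of NTg 2 from NTg 1 was -1.37 for Acta2 and ran from -0.23 (Pdgfrb) to 0.05 (Cnn1) for the rest of that list. The 3 nearest to Cacnb2 1456401_at were Pcdh12, a protocadherin gene of endothelium (0.05), the cholesterol exporter gene Abca1 (0.05) and Pofut2 (0.05). Among the channel members, the nearest to Scn4b was Cacnb2 1452476_at, at 0.21. With 4 arrays, 2 of them near-identical, such a profile holds little more than the level of NTg 2 and of Tg-Sirt1 2 against the pair.

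**Figure D4:**
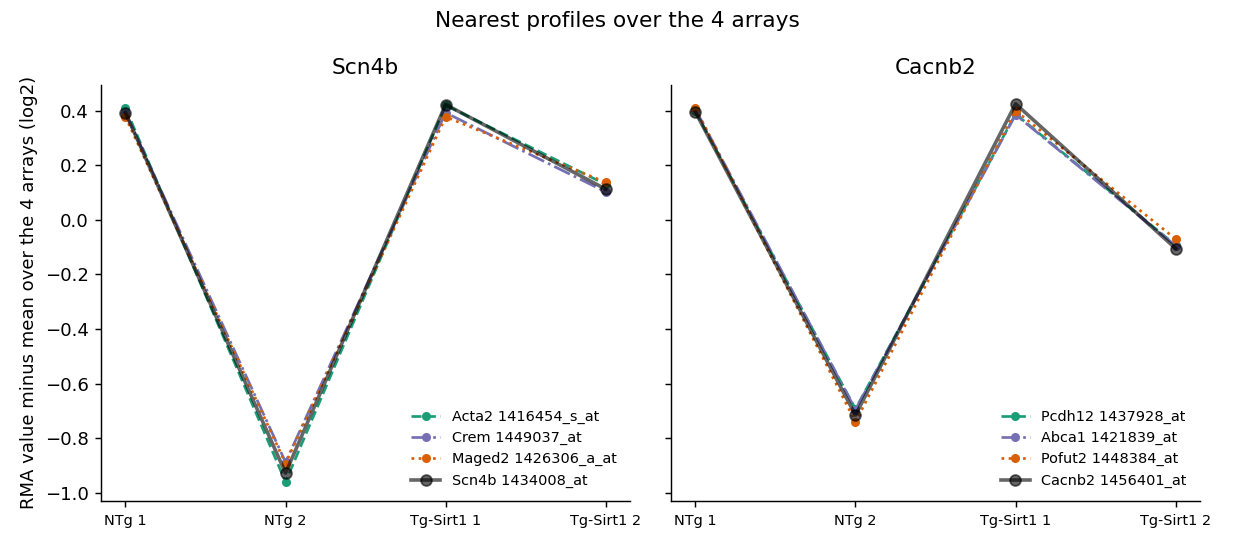
RMA value minus its mean over the 4 arrays, in log2 units, on each array for Scn4b (left) and Cacnb2 1456401_at (right) in black with the 3 nearest genes in colour; lines only join the points of a probe set. In both panels NTg 2 is lowest and the near-identical arrays NTg 1 and Tg-Sirt1 1 are highest.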

How the data were processed

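Each probe set had 1 deposited log2 value per array, made by the authors with RMA in a setup that lists Affymetrix Expression Console, per the submitters' processing notes. RMA is meant to bring the arrays to a common distribution, and it damps differences of dim probe sets. The deposited arrays still differed in distribution. At probe sets with a mean of at least 8, the median difference of NTg 2 from NTg 1 was -0.22, and -0.01 after a second quantile normalization. Detection, scan date and signal over background are unknown, since no scanner output was analysed here; the number of arrays limits the precision.

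After 64 control probe sets were left out, 45037 were fitted in limma 3.58.1 under R 4.3.3 (lmFit, eBayes), Tg-Sirt1 minus NTg, with two-sided p-values adjusted by Benjamini-Hochberg over all of them and a threshold of 0.05. The fit had 2 residual degrees of freedom and a prior of 3.10. SDs are over the 2 arrays of a label. Gene names came from GEO's platform annotation (34945 with 1 symbol, 932 with several, 9160 with none); no coordinates of probe sets were used. Single arrays were set side by side with no test. A marker gene was given by its brightest probe set. Of other channel and partner genes with a mean of at least 6, the 3 highest and 3 lowest differences were named, with ties. The members, lists and alternatives were chosen with earlier results of these data known. The fit was tested on simulated data. Alternatives are listed with their effect at the end; in the unmoderated test, probe sets without residual spread were left out.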

Additional observations from a re-analysis of the deposited data

How the results depend on the processing

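In all alternatives run, 0 of the 14 channel probe sets and 0 of all probe sets passed in limma or in the unmoderated test. At an unadjusted p under 0.05 there were 0 to 2 channel probe sets, and the lowest adjusted p of a channel probe set ran from 0.508 to 0.999 over the alternatives. Fits that leave out an array or count the pair once leave 1 label with a single array, assumed to vary like the other label, and all of the unadjusted calls of channel probe sets came from these fits. The replicate numbers are shared by the labels only, and same-numbered arrays deviated together (r = 0.293 over probe sets); the fit with the replicate block gave the same differences by construction (0.535 for Scn4b) and 0 calls. Leaving out 1 array at a time reversed the sign at least once for these probe sets, with ranges of -0.085 to 0.075 for Cacna1c 1421297_a_at, -0.365 to 0.115 for Cacna1g, -0.205 to 0.195 and -0.035 to 0.075 for Cacna1h, -0.81 to 0.15, -0.32 to 0.41 and -0.165 to 0.055 for Cacna2d1 1449999_a_at, 1425861_x_at and 1441608_at, -0.235 to 0.875 and -0.31 to 1.01 for Cacnb2, -0.065 to 0.205 for Hcn2 and -0.125 to 1.195 for Scn4b. With the near-identical pair counted once as NTg, the sign turned for Cacna1c 1421297_a_at (0.085), Cacna1h 1422710_a_at (0.1275), Cacna2d1 1425861_x_at (-0.225) and Hcn2 (-0.07), and once as Tg-Sirt1 for Cacna1h 1427607_at (-0.015). Centring on medians turned Cacna1c 1421297_a_at and Cacna1h 1422710_a_at (0.03 each), and a second quantile normalization the latter (0.04). The filter at 6, the offset of 16 and the other priors reversed none of the channel probe sets they kept. The cause was not tested.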
